A study of Mus musculus with 12 samples.

Results

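The growth hormone and insulin-like growth factor (IGF) axis was described in mouse liver through 10 genes of 47729 in the count files. The genes were picked by name because earlier results of these libraries had drawn attention to them, so their levels and differences are given as a description without p-values. Adjusted p-values are given for genes among 106 others of the pathway. Their lists were also drawn up with earlier results known, so these are not independent tests. All 10 were among the 16823 genes with enough counts to be tested. Liver RNA came from 3 groups of 4 C57BL/6 mice, 12 mice in all. Healthy mice (Naive_vehicle) were wild type and received vehicle. STAM_vehicle mice had been given the beta-cell toxin streptozotocin on day 2 after birth and a high-fat diet from week 4, which leads to diabetes with non-alcoholic steatohepatitis (NASH), and received vehicle. STAM_treated mice had the same induction and received 10 mg/kg I-BET151, an inhibitor of the bromodomains of the BET proteins, daily from week 6. Livers were taken at week 9. All mice were male by the methods of the study, and in all 12 libraries the Y-linked gene Ddx3y was present (23.1 to 74.0 CPM, the counts scaled to library size) while Xist lay between 0.0602 and 0.387 CPM. The STAM groups differ from the healthy group in toxin and diet together, and these cannot be told apart here.

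Growth hormone is made in the pituitary and reaches the liver through the blood. It binds the receptor Ghr, which activates the kinase Jak2 and, through it, the transcription factor Stat5b. Stat5b switches on Igf1 and Igfals, whose products circulate as a hormone and its carrier, and the feedback inhibitors Socs2 and Cish. Male mice release growth hormone in pulses and females more steadily, and this pattern sets much of the sex difference of the liver. The steroid enzyme Hsd3b5 and several major urinary proteins (Mups), which carry pheromones into urine, are high in male liver. Gh and Prl, the pituitary hormones, had 2 counts together in the healthy livers and 0 in both STAM groups, and the liver is not known to make them.

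The 9-letter motif TTCNNNGAA is the type of sequence that STAT5 proteins recognise, and Igfals was the member in whose promoter windows it was found. RefSeq holds promoter windows for 8 of the 10 genes, 13 windows in all, of which the 250 bases before each start were read on both strands. Socs2 and Mup20 had no entry. The motif lay in 2 of the 13 windows, both among the 3 of Igfals, and in 7.02% of all 32851 windows of the same length. In the other genes of the pathway, 10 of 104 windows (9.62%) held it. These windows are on the plus strand of GRCm38.p6, at chr17:24877594-24877843 for start site 1 and chr17:24877981-24878230 for start site 2, and both lie within the gene as GENCODE M21 draws it (chr17:24865997-24882010). They are shown 5′ to 3′ with the motif in capitals.
Igfals start site 1: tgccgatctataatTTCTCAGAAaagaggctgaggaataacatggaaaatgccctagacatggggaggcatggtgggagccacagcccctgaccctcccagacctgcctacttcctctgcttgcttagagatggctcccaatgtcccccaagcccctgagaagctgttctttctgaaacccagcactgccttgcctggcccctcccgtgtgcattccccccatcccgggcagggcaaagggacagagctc
Igfals start site 2: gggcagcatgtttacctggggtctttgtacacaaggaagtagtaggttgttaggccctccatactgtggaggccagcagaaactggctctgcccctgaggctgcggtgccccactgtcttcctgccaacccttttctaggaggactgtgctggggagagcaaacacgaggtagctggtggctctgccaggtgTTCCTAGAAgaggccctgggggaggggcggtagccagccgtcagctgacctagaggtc
The match TTCTCAGAA lies from base -236 to -228 before start site 1, and TTCCTAGAA from base -58 to -50 before start site 2. A match is a string of letters and not a measured binding site, and its absence from the other windows says only that these letters are not in the 250 bases.

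Total counts per mouse were between 34711229 and 53365596. CPM values below were scaled by edgeR's TMM method and are given with the SD over 4 mice. A log2 fold change is given with its standard error (SE) from edgeR's quasi-likelihood fit of all 12 mice. Nothing in the labels says that the 4 mice of a group came from separate cages or litters, so the errors cover the spread between these mice. I-BET151 mouse 3 stood apart, with a TMM factor of 1.61 against 0.770 to 1.11 in the other 11 mice and 7.95% of its counts on its 10 highest genes against 13.5 to 18.0%. The 6 hepatocyte markers (Alb, Ttr, Apoa1, Apob, Tat, Cps1) summed to 102438 to 125047 CPM in healthy mice and 51953 to 73564 CPM in vehicle mice. In I-BET151 mice they reached up to 85298 CPM, with 19773 CPM in mouse 3. None of the 6 passed the test in any comparison, although all 6 were lower in each STAM group than in healthy mice. The 5 macrophage markers (Clec4f, Vsig4, Cd5l, Adgre1, Cd68) summed to 148.5 to 208.4 CPM in healthy, 242.6 to 431.7 CPM in vehicle and 181.7 to 370.9 CPM in I-BET151 mice. The part of these marker levels in the results was not tested, and in bulk liver fewer cells of a type and less RNA per cell cannot be told apart. The methods of the study left out 1 I-BET151 sample without naming it, so all 4 were used here.

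Ghr, the growth hormone receptor, was lower in every STAM liver than in any healthy one. Its level was 213.6, 303.1, 311.5 and 308.1 CPM in healthy mice 1 to 4. In vehicle mice it was 199.5, 200.7, 137.6 and 186.4 CPM. It was 150.6, 200.6, 109.9 and 135.1 CPM in I-BET151 mice. The groups did not overlap between health and STAM, although vehicle mouse 2 and I-BET151 mouse 2 came near healthy mouse 1, the lowest of its group. The mean was 284.0 ± 47.1 CPM in healthy, 181.1 ± 29.7 CPM in vehicle and 149.0 ± 38.2 CPM in I-BET151 mice (SD, n = 4). The log2 fold change was -0.65 (SE 0.20) for vehicle against healthy, -0.28 (SE 0.20) for I-BET151 against vehicle and -0.93 (SE 0.20) for I-BET151 against healthy. Without I-BET151 mouse 3 the last became -0.82.

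Stat5b, the factor through which the receptor acts on target genes, was at a like level in the 3 groups. It was at 80.9 ± 6.39 CPM in healthy, 79.7 ± 10.9 CPM in vehicle and 77.6 ± 3.88 CPM in I-BET151 mice, with all 12 livers between 69.8 and 95.1 CPM. Its log2 fold change was between -0.060 and -0.023 in the 3 comparisons, each with an SE of 0.12.

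The feedback inhibitors Cish and Socs2, which dampen the receptor's signal, were low in 3 of the 4 healthy livers and high in healthy mouse 2. Cish was at 5.43, 14.1, 2.94 and 3.54 CPM in healthy mice. It was at 11.9, 26.5, 26.3 and 21.9 CPM in vehicle mice and 11.98, 11.8, 21.4 and 25.8 CPM in I-BET151 mice. Every STAM liver was thus above healthy mice 1, 3 and 4, and only healthy mouse 2 reached into the STAM range. The log2 fold change of Cish was 1.74 (SE 0.45) for vehicle against healthy, a 3.33-fold higher level, and 1.45 (SE 0.45) for I-BET151 against healthy. Between I-BET151 and vehicle it was -0.28 (SE 0.43). Without healthy mouse 2 the values of Cish against healthy were 2.44 for vehicle and 2.15 for I-BET151.

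Socs2 was at 7.21, 28.0, 3.72 and 3.65 CPM in healthy mice and 5.79, 11.7, 20.3 and 14.2 CPM in vehicle mice. The I-BET151 mice had 29.0, 30.1, 17.9 and 54.8 CPM. Mice 1, 2 and 4 of the I-BET151 group were therefore above all 8 other livers, and mouse 3 lay below vehicle mouse 3 and healthy mouse 2. The mean was 10.6 ± 11.7 CPM in healthy, 13.0 ± 6.00 CPM in vehicle and 32.9 ± 15.6 CPM in I-BET151 mice. Socs2 had a log2 fold change of 0.29 (SE 0.59) for vehicle against healthy, 1.34 (SE 0.59) for I-BET151 against vehicle and 1.63 (SE 0.60) for I-BET151 against healthy. Healthy mouse 2 carried much of the healthy mean, and without it the values against healthy were 1.41 for vehicle and 2.75 for I-BET151.

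Igf1, the hormone through which growth hormone acts on much of the body, was lower in every vehicle liver than in any healthy one. It was at 263.2, 428.9, 410.7 and 358.6 CPM in healthy mice. In vehicle mice it was at 183.6, 219.3, 225.3 and 252.3 CPM. In I-BET151 mice it was at 259.8, 318.9, 117.5 and 261.3 CPM, so that 3 of the 4 lay above all vehicle mice while mouse 3 lay below them. The mean was 365.3 ± 74.3 CPM in healthy, 220.1 ± 28.2 CPM in vehicle and 239.4 ± 85.8 CPM in I-BET151 mice. The log2 fold change of Igf1 was -0.73 (SE 0.26) for vehicle against healthy, 0.12 (SE 0.26) for I-BET151 against vehicle and -0.61 (SE 0.26) for I-BET151 against healthy. Without I-BET151 mouse 3 the I-BET151 mean was 280.0 ± 33.7 CPM (n = 3) and the value against vehicle was 0.36 (SE 0.17).

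Igfals, whose product holds IGF1 in the blood in a complex with a binding protein, followed the same order as Igf1 between health and STAM vehicle. It was at 46.2, 80.0, 52.8 and 55.5 CPM in healthy mice, 20.9, 38.1, 28.0 and 38.7 CPM in vehicle mice and 30.6, 51.2, 31.0 and 26.5 CPM in I-BET151 mice. The vehicle mice did not reach the healthy range, and of the I-BET151 mice only mouse 2 did. The mean was 1.86-fold lower in vehicle than in healthy livers by the fit, a log2 fold change of -0.90 (SE 0.25). It was -0.75 (SE 0.25) for I-BET151 against healthy and 0.15 (SE 0.24) for I-BET151 against vehicle.

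Igfbp2, a binding protein that keeps IGFs from their receptor, did not separate the groups. It was at 690.0 ± 121.9 CPM in healthy mice and 602.5 ± 115.9 CPM in vehicle mice. In I-BET151 mice it was at 705.4, 954.1, 150.4 and 642.6 CPM, so the level of mouse 3 was the lowest and that of mouse 2 the highest of all 12. The log2 fold changes were -0.20, 0.025 and -0.17 for vehicle against healthy, I-BET151 against vehicle and I-BET151 against healthy, each with an SE of 0.39. Without I-BET151 mouse 3, the second was 0.36 (SE 0.19).

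Hsd3b5, a male-biased enzyme that inactivates steroids, was the member with the fewest counts and the largest fold difference from health. It had 59, 68, 172 and 272 counts in healthy mice (1.26, 1.80, 5.0 and 7.82 CPM). It had 13, 39, 1 and 38 counts in vehicle mice (0.313, 0.743, 0.0193 and 0.806 CPM) and 15, 16, 27 and 3 counts in I-BET151 mice (0.270, 0.482, 0.484 and 0.0689 CPM). All 8 STAM livers were below all 4 healthy livers, and the healthy livers themselves spread from 1.26 to 7.82 CPM. The log2 fold change was -3.06 (SE 0.75) for vehicle against healthy, -3.60 (SE 0.79) for I-BET151 against healthy and -0.53 (SE 0.81) for I-BET151 against vehicle. Hsd3b5 has close paralogs, and its counts were made from uniquely mapped reads, so a read shared with a paralog may have been lost.

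Mup3 was abundant and lower in every STAM liver than in any healthy one. It was at 5449, 5750, 8836 and 7530 CPM in healthy mice. In vehicle mice it was at 2606, 2504, 504.3 and 2367 CPM, with mouse 3 far below the others. The I-BET151 mice had 1598, 2054, 567.2 and 1297 CPM. Mup3 had a log2 fold change of -1.79 (SE 0.48) for vehicle against healthy and -1.47 (SE 0.39) without vehicle mouse 3. It was -2.32 (SE 0.49) for I-BET151 against healthy, and -0.53 (SE 0.47) for I-BET151 against vehicle.

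Mup20, the male pheromone protein darcin, had another order than Mup3. It was at 2334, 2082, 4035 and 4703 CPM in healthy mice. In vehicle mice it was at 4402, 5054, 1128 and 4375 CPM, so that 3 of the 4 lay above healthy mice 1, 2 and 3 and mouse 3 lay below the whole healthy group. In I-BET151 mice it was at 1849, 2549, 868.6 and 1421 CPM. Mice 1, 3 and 4 of these were below all healthy mice, and all 4 were below vehicle mice 1, 2 and 4. The log2 fold change of Mup20 was 0.19 (SE 0.45) for vehicle against healthy, -1.16 (SE 0.46) for I-BET151 against vehicle and -0.98 (SE 0.46) for I-BET151 against healthy. Without vehicle mouse 3, I-BET151 against vehicle was -1.46 (SE 0.38), and without I-BET151 mouse 3 it was -0.94 (SE 0.44). Mup genes are near-identical copies of one another on chromosome 4, so the counts of a single Mup gene are uncertain.

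**Figure D1:**
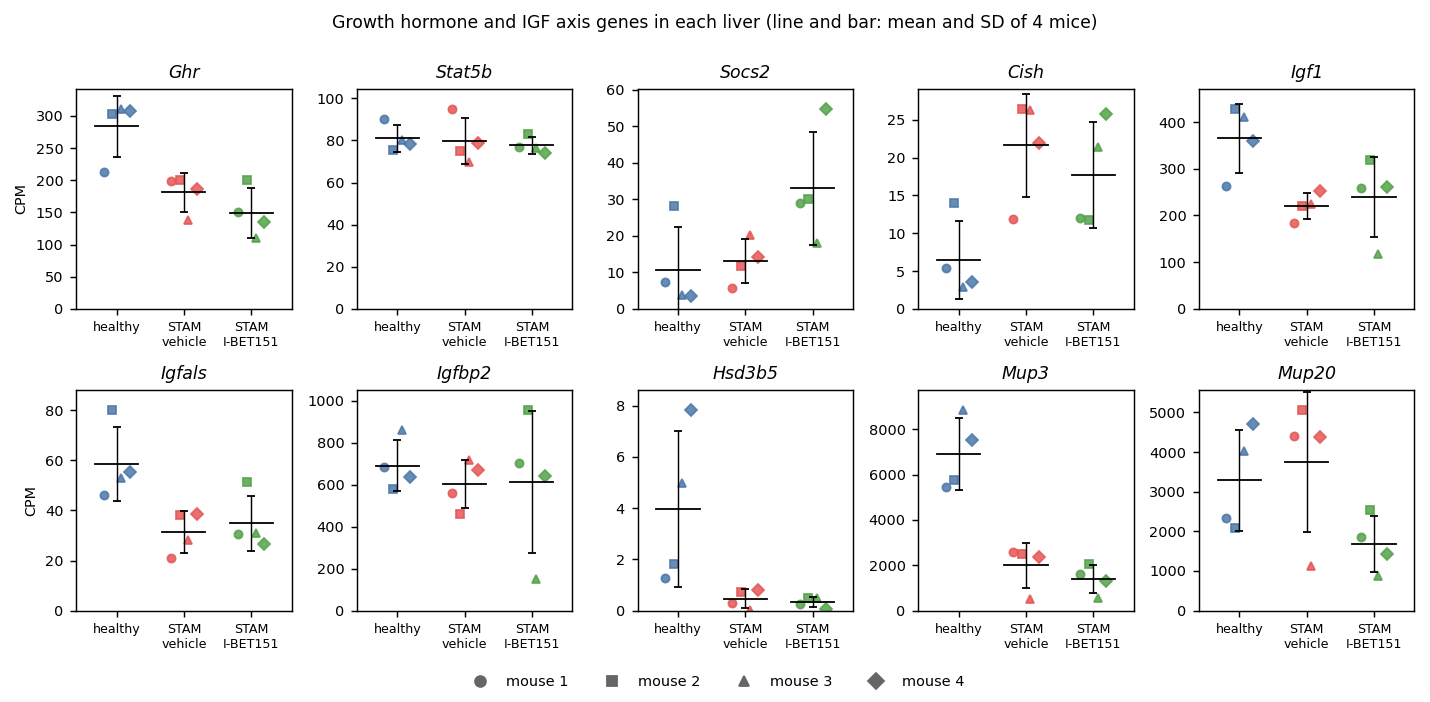
Level of each of the 10 genes in CPM (vertical axis, linear, from 0) in 4 livers of each group (healthy, STAM given vehicle, STAM given I-BET151), with marker shapes for mouse number, a line for the mean and a bar for the SD. Ghr, Mup3 and Hsd3b5 sit lower in all 8 STAM livers than in the healthy ones, Stat5b lies between 69.8 and 95.1 CPM throughout, and vehicle mouse 3 (triangle) has the lowest Mup3, Mup20 and Hsd3b5 of its group.

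Per kilobase of exon, which allows levels of different genes to be set side by side, the members of healthy liver ran from Mup3 at 6452 CPM per kb, Mup20 at 3544 and Igfbp2 at 374 down to Igf1 at 36.9, Ghr at 31.4, Igfals at 18.5 and Stat5b at 14.6. Hsd3b5, Socs2 and Cish were lowest, at 2.56, 1.12 and 1.01 CPM per kb, and the SDs of these 3 means (1.97, 1.23 and 0.804) cover the gaps between them. In vehicle liver Mup20 (4030 CPM per kb) stood above Mup3 (1868), with SDs of 1906 and 935.

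Across the 10 genes, 4 passed the adjusted p threshold of 0.05 between vehicle and healthy (Cish higher, and Igfals, Hsd3b5 and Mup3 lower), where 7.1% of all tested genes did. Between I-BET151 and vehicle 0 passed the threshold of 0.1, where 0.351% of all genes did. In edgeR's fit 2 of the 10 had an unadjusted p under 0.05 there, as had 1460 of all genes, and DESeq2 also called 0. Between I-BET151 and healthy 4 passed 0.05 (Cish higher, and Ghr, Hsd3b5 and Mup3 lower), where 15.1% of all genes did. These counts describe genes that were chosen with such values known. Groups did not overlap for 5 genes between vehicle and healthy (Ghr, Igf1, Igfals, Hsd3b5 and Mup3, all lower in vehicle), where 12.2% of all genes lay wholly lower. They did not overlap for 3 between I-BET151 and healthy, where 8.85% of all genes lay wholly lower. Between I-BET151 and vehicle all 10 overlapped, and 5.04% of all genes did not. The median log2 fold change of the 10 genes was -0.42, -0.16 and -0.68 in the comparisons of vehicle with healthy, I-BET151 with vehicle and I-BET151 with healthy, beside 0.0089, 0.024 and 0.061 over all genes. In that order the median of the 6 hepatocyte markers was -0.65, -0.047 and -0.80. The 3 comparisons share groups, so they are not independent of each other.

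**Figure D2:**
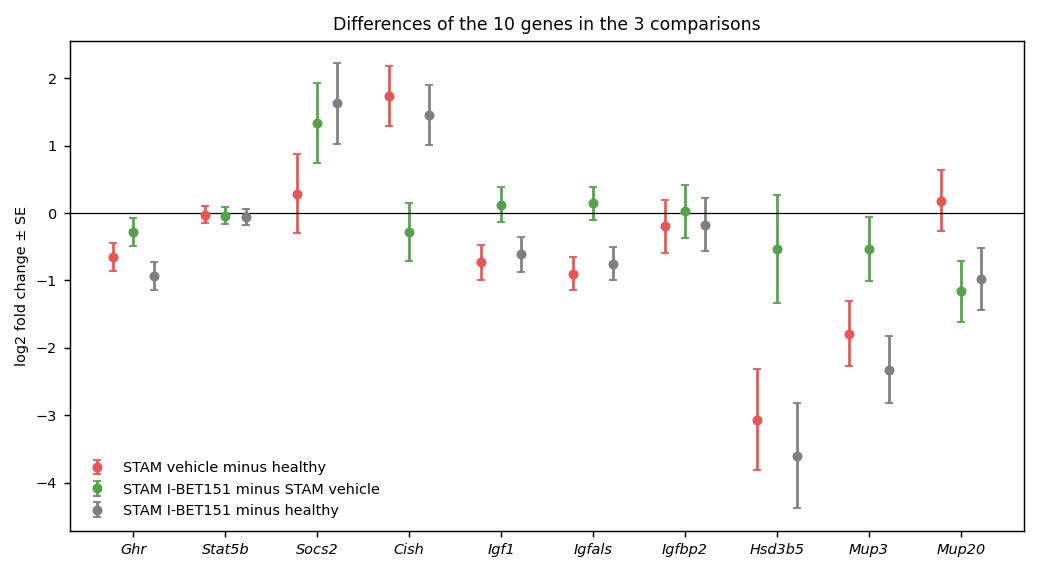
Log2 fold change (vertical axis) of the 10 genes in 3 comparisons, with bars of 1 SE from the fit of all 12 mice. Hsd3b5 (-3.06) and Mup3 (-1.79) have the lowest values of vehicle minus healthy, Cish (1.74) has the highest, and Socs2 (1.34) and Mup20 (-1.16) lie farthest from 0 for I-BET151 minus vehicle.

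The count of 4 between vehicle and healthy depended on single mice. It was 0 without healthy mouse 3, without healthy mouse 4 or without vehicle mouse 3, 1 without vehicle mouse 1, 2 or 4, and 2 without healthy mouse 2 or without I-BET151 mouse 1. It was 6 without I-BET151 mouse 3. These counts stand without the share of all genes called in the same fits. The count of other pathway genes called ran from 7 to 28 in those fits. Between I-BET151 and healthy, Ghr, Hsd3b5 and Mup3 passed in all 12 fits with 1 mouse left out. The names of the deposited files carry a lane number, and lane 2 alone held a mouse of every group. Within it the log2 difference of vehicle from healthy was -0.20 for Ghr, -0.061 for Igf1, -0.25 for Igfals, -0.61 for Hsd3b5, -1.20 for Mup3 and 2.01 for Cish, each from 1 mouse against 1, the healthy one being mouse 1 with the lowest Ghr and Igf1 of its group. With lane as a term in the fit, 0 members passed in any comparison, the value of Ghr for vehicle against healthy was -0.23 and that of Igf1 was 0.0030, and 37 of all genes were called. I-BET151 and vehicle mice shared 3 lanes, and within each of them Ghr (by -0.46 to -0.32) and Mup20 (by -1.62 to -0.38) were lower in the I-BET151 mouse. All other members differed in sign between these lanes. One sign over 3 pairs of 1 mouse against 1 can easily arise by chance, and its share over all genes was not computed.

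Of the 106 other genes of the pathway, 95 had enough counts to be tested. Between vehicle and healthy 8 rose and 10 fell, where 5.72% of all tested genes rose and 1.38% fell. Between I-BET151 and healthy 9 rose and 16 fell, where 9.88% of all tested genes rose and 5.25% fell. The lists were drawn up with earlier results of these data known.

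The list of IGF ligands, receptors, binding proteins and their proteases had 15 of 17 genes tested. Between vehicle and healthy 2 rose and 1 fell, where 5.72% of all tested genes rose and 1.38% fell. Igf2, the fetal IGF, rose from 0.683 ± 0.246 to 1.41 ± 0.231 CPM (log2 fold change 1.03, SE 0.27, edgeR adjusted p = 0.036). Stc2, which blocks the protease that frees IGFs from a binding protein, rose from 0.423 ± 0.126 to 1.46 ± 0.312 CPM (1.77, SE 0.40, edgeR adjusted p = 0.017). Irs1, the docking protein of the insulin and IGF1 receptors, fell from 13.3 ± 1.28 to 9.09 ± 0.537 CPM (-0.55, SE 0.14, edgeR adjusted p = 0.036). In I-BET151 mice Irs1 was at 6.82 ± 1.30 CPM, lower than healthy by a log2 fold change of -0.97 (SE 0.15, edgeR adjusted p = 0.0013), and the insulin receptor Insr fell against healthy as well (-0.57, SE 0.16, edgeR adjusted p = 0.027). Stc2 was again higher than healthy (1.36, SE 0.40, edgeR adjusted p = 0.035). All 4 vehicle livers lay above the healthy ones in Igf2 and Stc2 and below them in Irs1, at low CPM for Igf2 and Stc2.

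Igfbp1, a binding protein that rises when insulin is low, was at 230 ± 111 CPM in healthy, 537 ± 165 CPM in vehicle and 460 ± 345 CPM in I-BET151 mice. Its log2 fold change of 1.22 (SE 0.53) for vehicle against healthy did not pass (edgeR adjusted p = 0.19). It passed at a like fold without I-BET151 mouse 3 (1.20, SE 0.39, edgeR adjusted p = 0.044) and in a fit of those 2 groups only (edgeR adjusted p = 0.033), and without that mouse I-BET151 against healthy passed too (1.32, SE 0.41, edgeR adjusted p = 0.041). Igfbp3, whose product binds IGF1 together with that of Igfals, was at 27.1 ± 4.61, 26.3 ± 5.39 and 24.4 ± 4.96 CPM (edgeR adjusted p = 0.91 for vehicle against healthy). Igf1r, the receptor of IGF1, was at 4.31 ± 0.739, 5.65 ± 0.708 and 6.81 ± 2.05 CPM, and I-BET151 against healthy missed the threshold (0.66, SE 0.21, edgeR adjusted p = 0.0503).

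In the list of growth hormone receptor signalling, all 15 genes were tested and 1 rose between vehicle and healthy, where 5.72% of all tested genes rose. That gene was Sirpa, a membrane protein that the receptor's kinase phosphorylates, at 15.5 ± 4.52 CPM in healthy, 33.7 ± 9.50 CPM in vehicle and 37.4 ± 8.94 CPM in I-BET151 mice (1.12, SE 0.24, edgeR adjusted p = 0.013 for vehicle against healthy). Sirpa is also made by macrophages. All 5 macrophage markers had higher values in the same comparison, and Clec4f, Adgre1 and Cd68 passed. A link between these markers and the Sirpa level was not tested. Against healthy, 2 rose and 1 fell in I-BET151 mice, where 9.88% of all tested genes rose and 5.25% fell. Socs3, an inhibitor induced by cytokines, rose from 10.5 ± 0.991 to 24.1 ± 8.72 CPM (1.20, SE 0.26, edgeR adjusted p = 0.0090). Prlr, the receptor of prolactin, fell from 79.1 ± 36.0 to 39.4 ± 6.73 CPM (-1.0, SE 0.29, edgeR adjusted p = 0.034), and healthy mouse 2 alone stood at 133 CPM. Jak2 was at 15.3 ± 2.96, 13.7 ± 1.85 and 13.8 ± 2.99 CPM in healthy, vehicle and I-BET151 mice, and it passed in no comparison (edgeR adjusted p = 0.66 between vehicle and healthy). Stat5a, the near relative of Stat5b, was at 24.3 ± 4.84, 22.9 ± 1.09 and 29.7 ± 11.6 CPM and passed in no comparison.

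In the list of regulators of sex-dependent liver genes, all 9 genes were tested. Against healthy 0 rose and 1 fell in each STAM group, and the 3 genes described here are others of the list. Of all tested genes, 5.72% rose and 1.38% fell in vehicle mice, and 9.88% rose and 5.25% fell in I-BET151 mice. Cux2, a factor of female liver, was at 1.11, 4.10, 12.9 and 2.02 CPM in vehicle mice and 1.02, 3.21, 0.441 and 0.628 CPM in healthy mice (1.92, SE 0.86, edgeR adjusted p = 0.21). Bcl6, a repressor of male liver that opposes Stat5b at shared sites, was at 30.3 ± 7.02 CPM in healthy and 16.7 ± 4.42 CPM in vehicle mice (-0.86, SE 0.54, edgeR adjusted p = 0.38). Among I-BET151 mice it lay between 11.2 and 19.5 CPM except for 107.8 CPM in mouse 3. Without that mouse Bcl6 passed for vehicle against healthy at about the same fold (-0.88, SE 0.22, edgeR adjusted p = 0.014), as it did in a fit of those 2 groups only (edgeR adjusted p = 0.011). I-BET151 against healthy went from 0.38 (SE 0.54) with mouse 3 to -0.88 (SE 0.24, edgeR adjusted p = 0.022) without it. Zhx2, a repressor of fetal liver genes, was at 19.3 ± 1.89, 18.2 ± 1.32 and 17.2 ± 2.42 CPM in healthy, vehicle and I-BET151 mice (edgeR adjusted p = 0.73 for vehicle against healthy).

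Of 17 male-biased liver genes, 0 rose and 3 fell between vehicle and healthy, and 0 rose and 5 fell between I-BET151 and healthy. Of all tested genes, 5.72% rose and 1.38% fell for vehicle, and 9.88% rose and 5.25% fell for I-BET151. Slco1a1, an uptake transporter for organic anions, was at 71.5, 161, 184.8 and 131.1 CPM in healthy mice. It was at 35.0, 36.0, 4.97 and 36.9 CPM in vehicle mice and 10.97, 18.6, 14.5 and 8.57 CPM in I-BET151 mice. All STAM livers were below all healthy ones, and the edgeR adjusted p was 0.014 for vehicle (-2.28, SE 0.49) and 0.0014 for I-BET151 (-3.38, SE 0.52) against healthy. Serpina1e, a protease inhibitor, fell from 7658 ± 2873 to 2086 ± 1269 CPM in vehicle (-1.88, SE 0.53, edgeR adjusted p = 0.047) and to 1829 ± 926 CPM in I-BET151 mice (edgeR adjusted p = 0.020). Gna14, a G protein subunit, was 1.94-fold lower in vehicle (edgeR adjusted p = 0.038) and 2.24-fold lower in I-BET151 mice (edgeR adjusted p = 0.010). Elovl3, a fatty acid elongase, was at 97.6 ± 54.6, 36.7 ± 24.4 and 18.8 ± 9.25 CPM, and passed for I-BET151 against healthy (-2.38, SE 0.57, edgeR adjusted p = 0.015) but not for vehicle (edgeR adjusted p = 0.14). The median log2 fold change of the 17 was -0.52 for vehicle and -0.92 for I-BET151 against healthy. That of the 6 hepatocyte markers was -0.65 and -0.80.

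Of 19 female-biased liver genes tested out of 22, 5 rose and 5 fell between vehicle and healthy. Among all tested genes 5.72% rose and 1.38% fell. The female-biased list thus did not move one way (median log2 fold change -0.019). The cytochrome P450 genes Cyp2b9, Cyp2b13 and Cyp2a4 rose. Cyp2b9 was at 0.447, 6.68, 0.0581 and 0.201 CPM in healthy mice and 69.6, 37.2, 373.9 and 60.1 CPM in vehicle mice (edgeR adjusted p = 0.0066). I-BET151 mice had between 96.9 and 239.4 CPM (edgeR adjusted p = 0.0039 against healthy). Every STAM liver thus exceeded every healthy one in Cyp2b9. Cyp2b13 had 0, 2, 2 and 0 counts in healthy mice and 1.20 to 10.1 CPM in vehicle mice (edgeR adjusted p = 0.00089), and no fold is given against so few counts. Cyp2a4, which hydroxylates steroids, was at 22.6 ± 5.43 CPM in healthy, 134.9 ± 72.4 CPM in vehicle and 54.6 ± 17.3 CPM in I-BET151 mice (2.58, SE 0.34, edgeR adjusted p = 0.00074 for vehicle and 1.27, SE 0.32, edgeR adjusted p = 0.019 for I-BET151, both against healthy). Ntrk2, a neurotrophin receptor, rose from 1.13 ± 0.488 to 7.67 ± 3.95 CPM in vehicle mice (edgeR adjusted p = 0.0025).

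Female-biased genes that fell were also cytochrome P450 genes for the most part. Cyp2c40 fell from 26.9 ± 10.4 to 9.20 ± 2.43 CPM in vehicle (-1.54, SE 0.30, edgeR adjusted p = 0.0074) and 8.86 ± 3.16 CPM in I-BET151 mice (edgeR adjusted p = 0.0041). The others that fell between vehicle and healthy, named after their values were seen, were Cyp3a41b, Cyp3a44, Cyp2c69 and the leukemia inhibitory factor receptor Lifr. In the comparison of I-BET151 with healthy 5 rose and 6 fell, where 9.88% of all tested genes rose and 5.25% fell. Paralogs within the Cyp2b, Cyp2c and Cyp3a families are close in sequence, and their counts are uncertain to that extent.

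**Figure D3:**
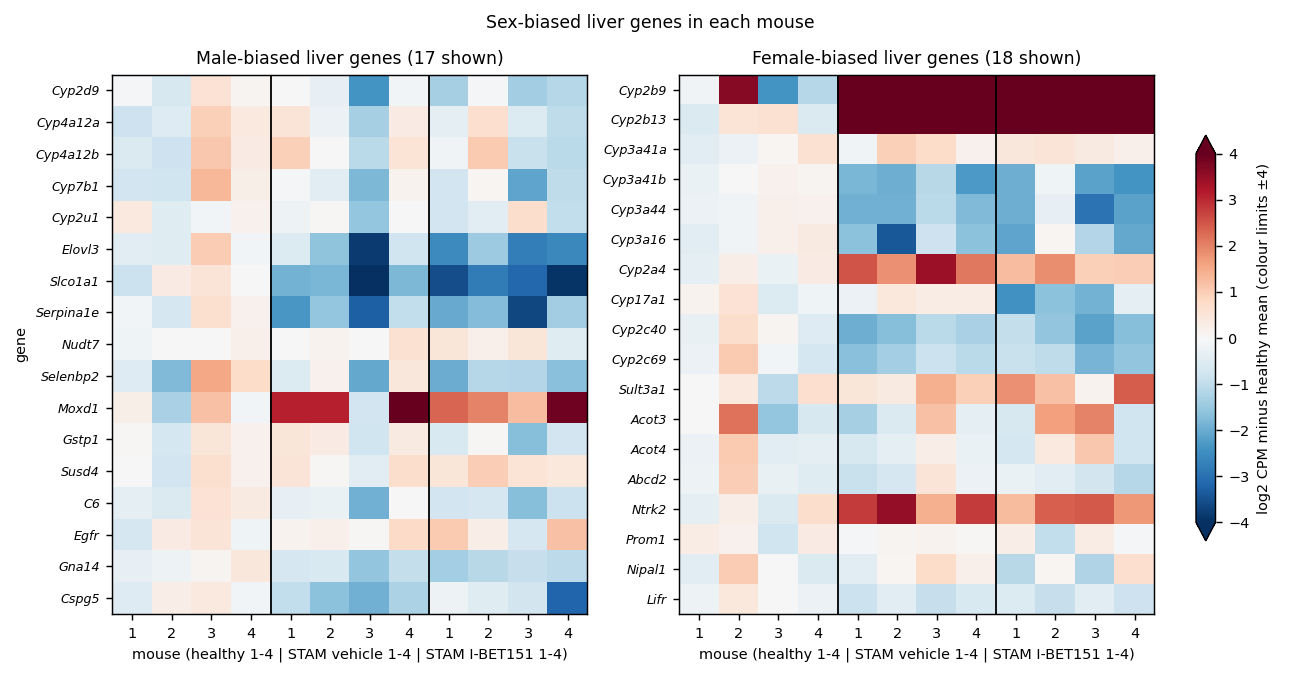
Log2 CPM of each mouse minus the mean of the 4 healthy mice (colour, red higher and blue lower, colours saturate at 4) for the 17 male-biased genes tested and 18 of the 19 female-biased ones, 1 row per gene and 1 column per mouse. In vehicle mouse 3 all 17 male-biased genes are the lowest of the vehicle group and 15 of the 19 tested female-biased genes are the highest, and Cyp2b9 and Cyp2b13 are above healthy in all 8 STAM livers.

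Vehicle mouse 3 differed from the other vehicle mice across the sex-biased genes, an order noticed after the values were seen and given without a test. It had the lowest level of the 4 vehicle mice in 17 of 17 male-biased genes and in 17 of 17 tested Mup genes, where it was lowest in 29.9% of all tested genes. It had the highest level in 15 of 19 female-biased genes, where it was highest in 29.3% of all genes. Its median male-biased gene was 1.58 below the healthy mean on the log2 scale (-1.58), against -0.22 to 0.13 in the other 3 vehicle mice. Of the members, it had the lowest Ghr, Stat5b, Hsd3b5, Mup3 and Mup20 and the highest Socs2 and Igfbp2 of its group. Its Xist level (0.387 CPM) was also the highest of the 12 livers.

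Healthy mice spread along the same genes. Healthy mouse 2 was the lowest of the 4 in 17 of 17 Mup genes and 11 of 17 male-biased genes and the highest in 10 of 19 female-biased genes, where it was lowest in 24.4% and highest in 23.2% of all genes. It also had the highest Socs2, Cish, Igf1 and Igfals of its group. Healthy mouse 3 was the highest in 17 of 17 Mup genes and 14 of 17 male-biased genes, where it was highest in 26.9% of all genes. The Mup genes are near-identical and the genes of a list share their libraries, so neither are separate observations.

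Among 17 of 20 other Mup genes tested, 0 passed between vehicle and healthy, where 7 had a higher and 10 a lower value, in contrast to the lower value of Mup3 itself. Between I-BET151 and vehicle 15 of these 17 had a higher and 2 a lower value (median log2 fold change 0.30), and 0 passed, while Mup3 and Mup20 had lower values. Neither contrast was tested. The mean of Mup7 was 5770 CPM in healthy, 1630 CPM in vehicle and 1948 CPM in I-BET151 mice, whereas that of Mup1 was 841, 1785 and 2014 CPM. These genes were picked from the list after their values were seen. Between I-BET151 and healthy Mup21 fell from 191 ± 142 to 18.0 ± 11.2 CPM (-3.41, SE 0.74, edgeR adjusted p = 0.0097) and Mup6 rose from 1.23 ± 0.812 to 6.03 ± 4.25 CPM (2.30, SE 0.63, edgeR adjusted p = 0.027). Of the Hsd3b family, 3 of 6 other genes were tested and 0 passed in any comparison. Hsd3b3 was at 83.0 ± 16.8, 87.0 ± 13.9 and 70.6 ± 29.5 CPM and Hsd3b2 at 22.7 ± 6.56, 19.5 ± 6.09 and 19.1 ± 10.2 CPM in healthy, vehicle and I-BET151 mice.

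I-BET151 against vehicle moved 0 of the 95 tested genes past the threshold in edgeR, where 0.351% of all genes passed. In edgeR 10 of the 95 had an unadjusted p under 0.05, as had 1460 of all 16823 genes. DESeq2 called 3 pathway genes, a count given without its share over all genes. Of these, 2 are given here, chosen by their values. The female-biased Cyp17a1, an enzyme of androgen synthesis, was at 43.9 ± 29.2 CPM in I-BET151 and 131.7 ± 24.5 CPM in vehicle mice (-1.59, SE 0.37, edgeR adjusted p = 0.14, DESeq2 adjusted p = 0.0037). Cyp2a4 had a log2 fold change of -1.31 (SE 0.32, edgeR adjusted p = 0.16, DESeq2 adjusted p = 0.011). The edgeR adjusted p of Cyp17a1 passed 0.1 without I-BET151 mouse 4 (0.015) and that of Cyp2a4 without I-BET151 mouse 2 (0.092). With the lane as a term neither passed, at log2 fold changes of -1.72 for Cyp17a1 and -1.59 (SE 0.28) for Cyp2a4.

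**Figure D4:**
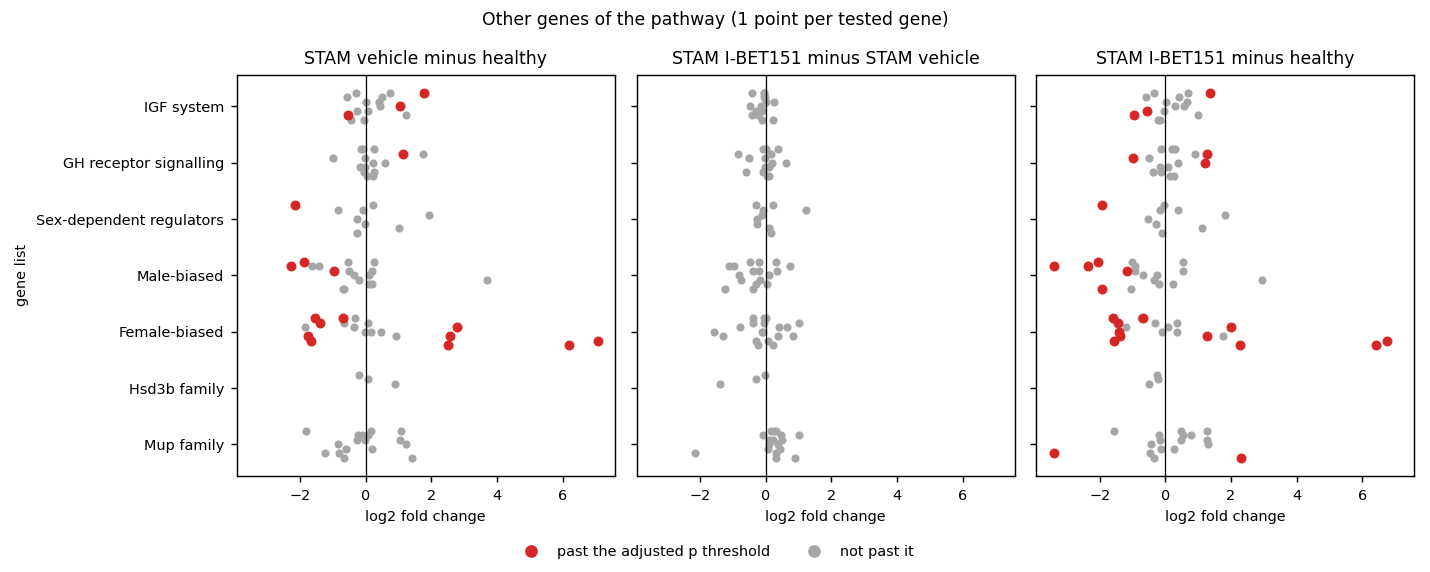
Log2 fold change (horizontal axis) of each tested gene of the 7 other lists of the pathway (rows) in the 3 comparisons, with genes past the adjusted p threshold in red. The male-biased list has red points only to the left of 0, the female-biased list has them on both sides, and I-BET151 minus vehicle has 0 red points.

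Several of the named calls rested on single mice. When 1 mouse at a time was left out, Cyp2b9, Cyp2b13, Cyp2a4, Cyp2c40, Ntrk2 and Slco1a1 passed in all 12 fits of vehicle against healthy. Igf2 and Irs1 did not pass without healthy mouse 2, 3 or 4 or without any 1 of the 4 vehicle mice (highest adjusted p 0.10 and 0.11). Stc2 did not without healthy mouse 2, 3 or 4 or vehicle mouse 3 (highest 0.061), Sirpa without healthy mouse 2 or 3 (highest 0.051) and Gna14 without healthy mouse 2, 3 or 4 or vehicle mouse 3 or 4 (highest 0.14). Serpina1e did not pass in 9 of the 12 fits, namely without any 1 of the healthy mice, without vehicle mouse 1, 2 or 3 and without I-BET151 mouse 1 or 2 (highest 0.14). For I-BET151 against healthy, Cyp2a4 and Elovl3 did not pass without healthy mouse 3 (0.067 and 0.053), Serpina1e without healthy mouse 3 or 4 (highest 0.063), Insr without healthy mouse 2, 3 or 4 or I-BET151 mouse 1 (highest 0.095), Mup6 without healthy mouse 1, 2 or 4 or I-BET151 mouse 2 (highest 0.083) and Prlr without healthy mouse 2 or I-BET151 mouse 3 or 4 (highest 0.12). Stc2 did not without healthy mouse 2, 3 or 4, I-BET151 mouse 3 or 4, or vehicle mouse 4 (highest 0.0998). All these adjusted p-values are from edgeR.

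The genes whose pattern over the 12 mice was most like that of Igf1, by Pearson correlation of log2 CPM, were Tfam, a factor of mitochondrial DNA (r = 0.964, Spearman rho = 0.951), Nipsnap3b (0.963, 0.972), the bromodomain gene Brd7 (0.962, 0.895), Arl8b (0.961, 0.944) and the translation factor Eif4g1 (0.961, 0.923). For Hsd3b5 they included the mitochondrial import gene Timm9 (r = 0.964, rho = 0.874), the cytochrome P450 gene Cyp1a2 (0.942, 0.909), Abcb10 (0.933, 0.965) and Naa60 (0.933, 0.902). They are among the highest of all 16823 tested genes over 12 points that share group means and library composition, so they are a description with no p. Cyp1a2 was at 215 CPM in healthy, 109 CPM in vehicle and 96.6 CPM in I-BET151 mice.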

How the data were processed

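Total RNA of 12 livers was sequenced as stranded mRNA libraries with 101 base paired-end reads. Per the labels and the methods of the study, the authors aligned reads to mm10 with STAR 2.5.1b, kept uniquely mapped reads and counted them per gene with HTSeq, and the deposited files hold raw counts without normalization. Symbols of 47224 of the 47729 gene identifiers came from GENCODE M21, and promoter sequences from RefSeq (GRCm38.p6).

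All 12 mice entered 1 edgeR 4.0.16 quasi-likelihood fit of 3 groups (R 4.3.3, TMM, filterByExpr with a minimum count of 10, Benjamini-Hochberg over 16823 genes). Genes were called at an adjusted p of 0.05, or 0.1 for I-BET151 against vehicle. The SE is the size of the log2 fold change divided by the square root of F. Log2 CPM used a prior count of 2. The scripts were tested on simulated counts. Members and lists were chosen with earlier results of these data known. Named were all members, up to the 4 genes with the smallest adjusted p per list and comparison, 8 fixed genes, and the 5 genes most like Igf1 and Hsd3b5. No 2 mice of a group agreed within sampling noise. Alternatives were DESeq2 1.42.0, RLE, other filters, 2-group fits, lane, the replicate number as a block, and each mouse left out. Some genes of the lists are counted but not reported here by name.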

Additional observations from a re-analysis of the deposited data

Results flagged for a closer look

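In 36 genes (the members and the named genes of the other lists), each group of 4 mice was searched for a mouse far from its group by Dixon's ratio of gap to range. It marked 12 of 108 groups, and chance alone marks about 1 in 20. No difference between groups under a shared contrast was tested, and no data outside the main measurement were used.

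Vehicle mouse 3 accounted for 6 of the 12. It lay below the other vehicle mice in Mup3 (504.3 CPM against 2367 to 2606), in Slco1a1 (4.97 CPM against 35.0 to 36.9) and in Zhx2 (16.2 CPM against 18.7 to 19.0). It lay above them in Cyp2b9 (373.9 CPM against 37.2 to 69.6), Cyp2b13 (10.1 CPM against 1.20 to 2.16) and Prlr (63.4 CPM against 30.2 to 35.1).

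Healthy mouse 2 accounted for 3. It lay above the other healthy mice in Socs2 (28.0 CPM against 3.65 to 7.21), Cyp2b9 (6.68 CPM against 0.0581 to 0.447) and Prlr (133.0 CPM against 58.3 to 63.2).

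The remaining 3 were Ghr in healthy mouse 1 (213.6 CPM against 303.1 to 311.5), Bcl6 in I-BET151 mouse 3 (107.8 CPM against 11.2 to 19.5) and Elovl3 in I-BET151 mouse 2 (32.7 CPM against 13.0 to 15.0).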

How the results depend on the processing

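Of 597 recomputed log2 fold changes of the 10 members, 588 moved by less than the SD between single mice of the groups compared. The other 9 moved beyond it, and 0 changed direction while called. Of the 9, 7 moved with the lane as a term and 2, both of Socs2, without healthy mouse 2. Leaving out 1 of 4 mice can seldom move a mean by a full SD, and some fits left out a mouse outside the comparison. The 588 therefore say little about stability. Between vehicle and healthy the count of members called was 4, with 2 where every mouse had to have 10 counts, 0 with lane as a term and a range of 0 to 6 when 1 mouse was left out. The count of other pathway genes called was 18, with 2 with lane, 29 in a fit of the 2 groups only and 7 to 28 when 1 mouse was left out. Between I-BET151 and vehicle 0 members were called under every alternative run, and the count of other genes was 0, with 3 by DESeq2, 3 without the low-count filter and 0 to 1 when 1 mouse was left out. Between I-BET151 and healthy the members called were 4, with 0 with lane and 3 to 5 when 1 mouse was left out. The other genes were 25, with 1 with lane, 16 in the fit of the 2 groups only and 15 to 31 when 1 mouse was left out. DESeq2 called 25 and 35 of the other genes against healthy. The replicate number as a block gave 11 of the other genes and 3 members between vehicle and healthy. Deviations from the group means did not go together in mice with a shared number (mean correlation -0.093, beside 0.031 between different numbers). This mean pools all 3 groups and cannot exclude a pairing. Vehicle and I-BET151 mice of the same number shared a lane for mouse 1 (lane 6), mouse 3 (lane 7) and mouse 4 (lane 2). Lane and group overlap in few mice, and the cause of these moves was not tested. Depth limits Hsd3b5, Cyp2b13 and Igf2, which have few counts per mouse.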
